A study of Mus musculus with 7 samples.

Results

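The V joins studied here lie 100 to 500 kb upstream of VH81X in the mouse Igh locus, in a stretch of 400 kb that lies beyond the 6 V segments nearest to VH81X. They were chosen by position alone, as junctions on chromosome 12 (mm9, per the submitters' processing notes) at 114936378 to 115336377 in the deletional orientation. Junction positions that lay within 300 bp of each other and together held 10 or more junctions were taken as 1 V segment. The window held 23 of 158 V segments and 10423 of 95203 V joins, and 10412 of its joins fell in those segments. Another 8 clusters of under 10 joins held the other 11. The window contributed between 22 and 23 segments with joins in each library.

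The joins come from high-throughput genome-wide translocation sequencing (HTGTS), in which the sequence joined to a known DNA end is read, here the JH4 coding end as bait. Genomic DNA came from mice of the 129SVE strain, 4 to 6 weeks old, and from their bone marrow pro-B cells in a B220+CD43highIgM- sort. The 4 VH81X-CBEscr/scr libraries were compared with 3 WT libraries. The genotype is taken here to mean that both alleles carry a scrambled CTCF-binding element (CBE) at VH81X, though the labels give only the short name. Bait, strain, age and sort were the same in both groups, and the labels name no other allele. No cell marker could be checked, since DNA junctions carry no expression, and whether the libraries are separate mice is not stated. P-values therefore measure only the spread between these libraries, which may be technical.

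V(D)J recombination joins a V, a D and a J segment into the variable exon of an immunoglobulin heavy chain. The RAG recombinase cuts each V segment at the border between its coding end and its recombination signal sequence, which is made of a heptamer, a spacer and a nonamer. Bases are then lost and added at the coding end before it is joined, so that a join may or may not keep the reading frame that runs from the conserved cysteine of V into J. In pro-B cells RAG scans chromatin upstream from the DJ join, and CBEs lie beside many of the D-proximal V segments, VH81X (VH5-2) among them. The D-proximal part of the locus is built of interspersed members of the VH5 and VH2 families.

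The coding ends of the 4 most used segments of the window, all VH5, are shown beside that of VH81X, because they show how close the family members are and because V_114998634 and V_115055837, whose shares are set side by side below, differed at 1 of 178 bases compared. Segments are called V and their most frequent junction position. Each sequence is the majority read of the junctions, minus strand, with the codon of the conserved cysteine in capitals. Positions are the files' own, mm9 per the submitters' processing notes, and were not checked against a genome. Each sequence runs from the segment's most frequent junction. That of V_115055837 therefore ends 1 base nearer its cysteine codon, which is not itself a difference in sequence.
VH81X (chr12:114836377-114836468): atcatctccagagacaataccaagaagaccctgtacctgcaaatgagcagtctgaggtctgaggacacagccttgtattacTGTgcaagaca
V_114961492 (chr12:114961492-114961583): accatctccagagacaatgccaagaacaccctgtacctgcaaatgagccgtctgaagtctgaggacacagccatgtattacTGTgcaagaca
V_114998634 (chr12:114998634-114998725): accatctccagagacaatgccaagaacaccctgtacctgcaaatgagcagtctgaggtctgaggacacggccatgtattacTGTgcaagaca
V_115081350 (chr12:115081350-115081441): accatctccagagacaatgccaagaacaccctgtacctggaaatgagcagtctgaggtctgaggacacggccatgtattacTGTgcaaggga
V_115055837 (chr12:115055837-115055928): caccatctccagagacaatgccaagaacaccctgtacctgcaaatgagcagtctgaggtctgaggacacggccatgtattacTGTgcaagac

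The next set holds VH2-2, which lies close to VH81X and anchors the VH2 family, and the VH2 segments whose sequence or reading frame set them apart. V_115006778 and V_115111723 were identical at all 178 bases compared, and V_115039214 and V_115073093 differed at 5 of 178 bases, none of them in the stretch shown.
VH2-2 (chr12:114846142-114846233): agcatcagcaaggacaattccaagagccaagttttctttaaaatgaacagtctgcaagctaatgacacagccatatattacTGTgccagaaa
V_115006778 (chr12:115006778-115006869): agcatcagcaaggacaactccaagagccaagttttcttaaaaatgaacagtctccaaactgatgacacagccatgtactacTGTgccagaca
V_115111723 (chr12:115111723-115111814): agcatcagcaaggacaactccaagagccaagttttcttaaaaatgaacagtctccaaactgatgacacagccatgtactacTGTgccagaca
V_115039214 (chr12:115039214-115039305): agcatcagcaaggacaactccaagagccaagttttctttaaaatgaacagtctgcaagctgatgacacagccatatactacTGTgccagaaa
V_115073093 (chr12:115073093-115073184): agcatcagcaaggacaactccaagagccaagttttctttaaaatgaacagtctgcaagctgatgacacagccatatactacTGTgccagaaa
V_115187353 (chr12:115187353-115187444): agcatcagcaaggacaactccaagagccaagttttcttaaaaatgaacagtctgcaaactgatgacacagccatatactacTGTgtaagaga

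By identity over 90 bases, 12 of the 23 segments belonged with VH81X and are called VH5, and 11 belonged with VH2-2 and are called VH2. Identity to the own anchor was 91.1% to 95.6% for VH5 and 92.2% to 97.8% for VH2, against 66.7% to 71.1% for VH5 and 66.7% to 67.8% for VH2 to the other anchor. The families alternated along the chromosome, with a change of family in 15 of 22 neighbouring pairs. The spacing between neighbours had a median of 15.6 kb and ran from 6.77 to 40.4 kb.

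Depth ran from 31986 to 46915 junctions a library, of which 10961 to 16874 were V joins. The window held 1207, 1325, 1575 and 1760 joins in VH81X-CBEscr/scr replicates 1 to 4 and 1800, 1019 and 1737 joins in WT replicates 1 to 3. VH81X took 0.382%, 0.0686%, 0.107% and 0.165% of V joins in VH81X-CBEscr/scr replicates 1 to 4, against 8.95%, 9.18% and 10.1% in WT replicates 1 to 3. Shares are relative to the V joins, of which VH81X makes up very different parts in the genotypes, and the main shares and tests are therefore given with and without VH81X among the V joins. Each of 4 sequencing runs held 1 genotype, so run and genotype cannot be told apart.

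The window as a whole did not differ detectably between the genotypes. It took 10.02%, 11.4%, 12.1% and 11.2% of V joins in VH81X-CBEscr/scr replicates 1 to 4, against 10.7%, 9.30% and 11.7% in WT replicates 1 to 3. The groups overlapped, and WT replicate 2 was the lowest library. Means were 11.2% ± 0.853 in VH81X-CBEscr/scr (SD, n = 4) and 10.5% ± 1.19 in WT (SD, n = 3). The log2 difference of 0.085 had a two-sided exact permutation p of 0.429, and its limma 95% interval ran from -0.16 to 0.33. With VH81X left out of the V joins, the window took 11.2% ± 0.842 in VH81X-CBEscr/scr (SD, n = 4) and 11.6% ± 1.37 in WT (SD, n = 3). That log2 difference of -0.055 also lay within the spread between libraries (exact permutation p 0.657, limma 95% interval -0.30 to 0.19). The smallest p that the 35 splits of 7 libraries allow is 0.0286.

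**Figure D1:**
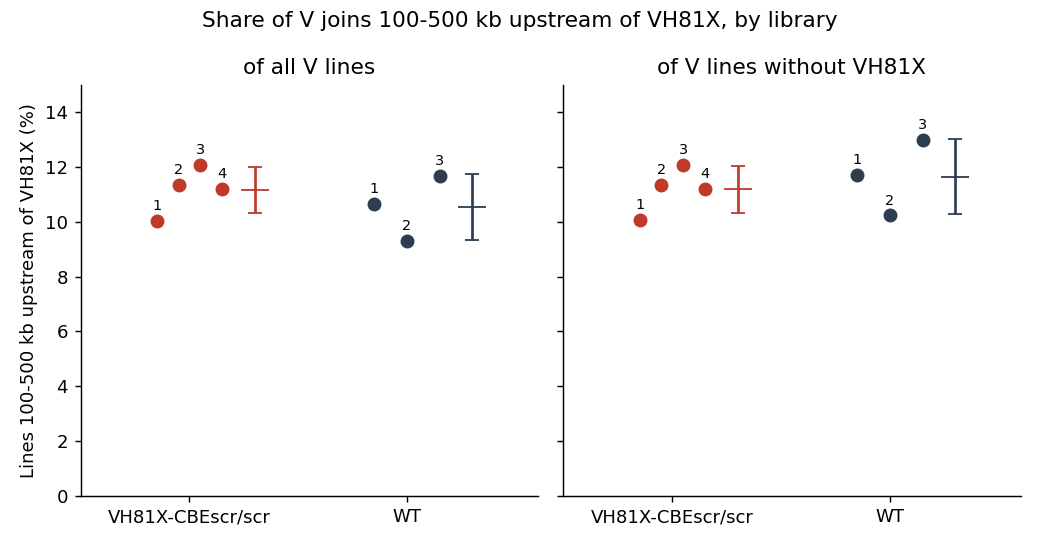
Share of V joins that lay 100 to 500 kb upstream of VH81X, in percent, for each VH81X-CBEscr/scr library (left in each panel) and each WT library, with the group mean and SD beside the points and replicate numbers above them. The left panel uses all V joins and the right panel V joins without VH81X, and the groups overlap in both, at 10.02% to 12.1% against 9.30% to 11.7% on the left.

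Relative to the segments on its near side, the window held fewer joins in each VH81X-CBEscr/scr library than in any WT library, a difference that did not pass the threshold after adjustment. Joins of the window numbered 0.438, 0.447, 0.588 and 0.545 for each join within 100 kb of VH81X in VH81X-CBEscr/scr replicates 1 to 4, against 0.775, 0.802 and 0.921 in WT replicates 1 to 3. The groups did not overlap. Mean ratios were 0.504 ± 0.0737 in VH81X-CBEscr/scr (SD, n = 4) and 0.833 ± 0.0781 in WT (SD, n = 3). The log2 difference was -0.73 with an exact permutation p of 0.0286, the smallest that can be had, and an adjusted p of 0.0571 over the 2 ratios tested. The ratio has the segments within 100 kb below the line, and these took 22.3% ± 2.31 of V joins in VH81X-CBEscr/scr (SD, n = 4) and 12.7% ± 1.09 in WT (SD, n = 3). Relative to the segments beyond 500 kb, the window did not differ detectably, at 0.169 ± 0.0140 in VH81X-CBEscr/scr (SD, n = 4) and 0.158 ± 0.0235 in WT (SD, n = 3), with a log2 difference of 0.10 (exact permutation p 0.4).

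Use within the window was uneven. V_114961492 and V_114998634, both VH5, held 26.8% of the window's share averaged over 7 libraries, the 5 most used segments held 48.8% and the top 8, all VH5, held 65.9%. At the other end, V_115324071 held 24 joins in all, from 0 in VH81X-CBEscr/scr replicate 4, which allows a share of up to 0.0191% of V joins, to 7 in VH81X-CBEscr/scr replicate 3. It was too rare for the test, so 22 of the 23 segments were tested.

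V_114961492, the segment of the window closest to VH81X at 125 kb, was the most used of the 23, with junctions at 114961489 to 114961520. It took 1.38%, 2.60%, 2.05% and 1.59% of V joins in VH81X-CBEscr/scr replicates 1 to 4, against 0.907%, 1.14% and 1.75% in WT replicates 1 to 3. The groups overlapped: replicates 2 and 3 of VH81X-CBEscr/scr lay above every WT library, and WT replicate 3 lay above the other VH81X-CBEscr/scr libraries. With V joins as library size its log2 fold change was 0.60 (SE 0.183, limma-voom adjusted p 0.0278), from means of 1.91% ± 0.544 in VH81X-CBEscr/scr (SD, n = 4) and 1.27% ± 0.437 in WT (SD, n = 3). It was the 1 of 22 tested segments of the window past the threshold, at a background of 4.65% of the 129 segments tested across the locus in either direction and 3.88% called higher. Without VH81X in the library size its log2 fold change was 0.46 (SE 0.181, limma-voom adjusted p 0.146) and the call was lost. The call was also lost without WT replicate 1 (log2 fold change 0.35), VH81X-CBEscr/scr replicate 2 (0.44) or VH81X-CBEscr/scr replicate 3 (0.55), and among lines not marked duplicate (0.31). It was lost at a fold of about the same size under limma-trend (0.60, limma-trend adjusted p 0.0920), with the replicate block (0.64, limma-voom adjusted p 0.419) and among joins matching their own segment best (0.59, limma-voom adjusted p 0.0615).

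V_114998634, also VH5 and 162 kb upstream (114998633 to 114998677), took 1.15%, 1.41%, 1.27% and 1.76% in VH81X-CBEscr/scr replicates 1 to 4, against 0.699%, 0.885% and 1.79% in WT replicates 1 to 3. WT replicate 3 lay above all VH81X-CBEscr/scr libraries and the other WT libraries below all of them. Its change on the log2 scale was 0.43 (SE 0.195) and did not pass the threshold (limma-voom adjusted p 0.273), but did without WT replicate 3 (0.85, limma-voom adjusted p 0.009996). Without WT replicate 1 it was 0.092 (limma-voom adjusted p 0.914). V_115081350, a VH5 segment 245 kb upstream (115081302 to 115081375), took 0.863%, 0.780%, 1.23% and 0.770% in VH81X-CBEscr/scr replicates 1 to 4, against 1.04%, 0.931% and 0.638% in WT replicates 1 to 3. WT replicate 3, the highest library for V_114998634, was the lowest for V_115081350.

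V_115055837, the VH5 segment that differs from V_114998634 at 1 of 178 bases, lies 219 kb upstream (115055833 to 115055856). It took 0.681%, 0.771%, 0.652% and 0.706% in VH81X-CBEscr/scr replicates 1 to 4, against 1.23%, 0.721% and 0.853% in WT replicates 1 to 3. With V joins as denominator the groups overlapped through VH81X-CBEscr/scr replicate 2 and WT replicate 2. Without VH81X it took 0.683%, 0.772%, 0.653% and 0.707% in VH81X-CBEscr/scr replicates 1 to 4, against 1.35%, 0.794% and 0.949% in WT replicates 1 to 3, and the groups no longer overlapped. It was the 1 segment of the 22 whose groups were apart in that denominator, at a background of 10.1% of 129 in either direction and 6.98% lower. With V joins as denominator, 0 of 22 had groups apart, at a background of 7.75%. On the log2 scale it differed by -0.41 with V joins (SE 0.218, limma-voom adjusted p 0.402) and by -0.55 without VH81X (SE 0.216, limma-voom adjusted p 0.146), and passed in neither. Without WT replicate 1, its highest library, the difference with V joins was -0.17 (limma-voom adjusted p 0.824). Of its joins 96.2% matched their own segment better than any other, and of those of V_114998634 97.6%. Each segment's sequence is the majority of the same lines, so these shares cannot show that the reads were placed rightly.

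The other 4 of the 8 most used segments lay farther upstream, and none passed the test. V_115264678, 428 kb upstream, took 0.506%, 0.788%, 0.698% and 0.642% in VH81X-CBEscr/scr replicates 1 to 4, against 0.913%, 0.584% and 0.819% in WT replicates 1 to 3. V_115215891, 379.5 kb upstream, took 0.730%, 0.454%, 0.721% and 0.579% in VH81X-CBEscr/scr replicates 1 to 4, against 0.723%, 0.620% and 0.719% in WT replicates 1 to 3. Both had overlapping groups, with log2 fold changes of -0.25 (SE 0.227) for V_115264678 and -0.17 (SE 0.234) for V_115215891. V_115241776, 405 kb upstream, took 0.672%, 0.566%, 0.521% and 0.604% in VH81X-CBEscr/scr replicates 1 to 4, against 0.705%, 0.575% and 0.853% in WT replicates 1 to 3. V_115103579, 267 kb upstream, took 0.465%, 0.531%, 0.621% and 0.585% in VH81X-CBEscr/scr replicates 1 to 4, against 0.682%, 0.547% and 0.564% in WT replicates 1 to 3. Their log2 fold changes were -0.27 (SE 0.235) for V_115241776 and -0.12 (SE 0.246) for V_115103579, again with overlapping groups.

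**Figure D2:**
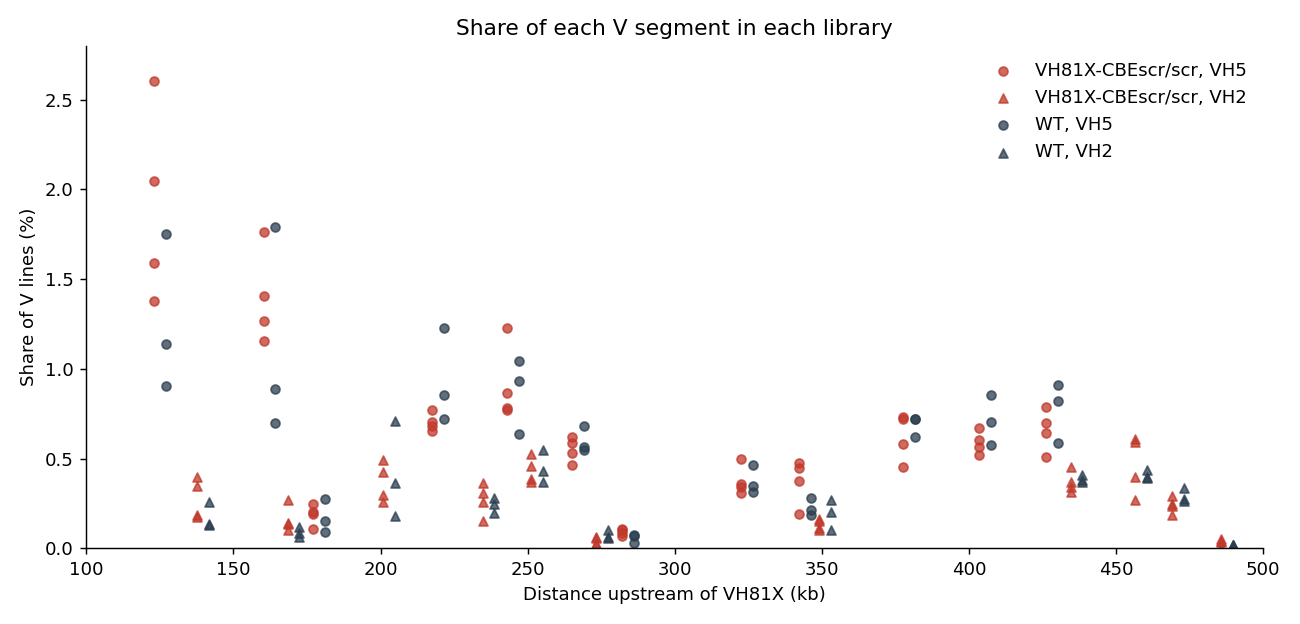
Share of V joins (%) held by each of the 23 segments against its distance upstream of VH81X (kb), with 1 point for each VH81X-CBEscr/scr library (red, drawn slightly left) and each WT library (dark blue, slightly right), circles for VH5 and triangles for VH2. V_114961492 at 125 kb reaches 2.60% in VH81X-CBEscr/scr replicate 2, and the VH2 segments stay low, with 0.711% as their highest value in WT replicate 1.

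Most of the other tested segments moved by less than the spread between libraries. With V joins as library size, 10 of the 22 had a positive and 12 a negative log2 fold change, with a median of -0.02 beside -0.04 over the 129 tested. Without VH81X, 8 were positive and 14 negative, with a median of -0.16 beside -0.18. Without VH81X, limma-voom called 0 of 22, at a background of 2.33% of 129, and 2 had an unadjusted p under 0.05, beside 11.6% of the 129. With V joins as library size 2 had an unadjusted p under 0.05, beside 13.2%. Adjusted p-values of the 21 uncalled segments ran from 0.273 to 0.999 with V joins as library size.

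The sign of the change was not spread evenly over the window. Over the 129 segments tested across the locus the median was below 0, at -0.04 with V joins and -0.18 without VH81X. All 5 tested segments within 200 kb had log2 fold changes above 0 in both denominators, while beyond 200 kb 5 of 17 were positive with V joins and 3 of 17 without VH81X. Besides the called V_114961492 these 5 were V_114976040 (0.65, SE 0.381), V_114998634 (0.43), V_115006778 (0.79, SE 0.456) and V_115015512 (0.16, SE 0.401). Spearman's rho of log2 fold change with distance was -0.494 over the 22 segments, a description of points that share libraries and denominator and are not independent. The sign of V_115015512 turned in 4 of the alternatives tried and that of V_115006778 in 1.

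Beyond 200 kb the values went both ways. Positive values with V joins as library size belonged to V_115073093 (0.16), V_115081350 (0.06), V_115120456 (0.78), V_115180584 (0.63) and V_115294804 (0.06). Negative values belonged to V_115039214 (-0.12), V_115089463 (-0.04), V_115111723 (-0.81), V_115160877 (-0.0016), V_115187353 (-0.45), V_115272954 (-0.07) and V_115307490 (-0.25), besides those of the more used segments above. The largest of these sizes came from the rarest segments: V_115120456, at 0.0900% ± 0.0182 in VH81X-CBEscr/scr (SD, n = 4) and 0.0566% ± 0.0235 in WT (SD, n = 3), had an SE of 0.531, and V_115111723, at 0.0423% ± 0.0197 in VH81X-CBEscr/scr and 0.0736% ± 0.0241 in WT, an SE of 0.553. V_115180584, at 0.373% ± 0.128 in VH81X-CBEscr/scr (SD, n = 4) and 0.227% ± 0.0507 in WT (SD, n = 3), lay above every WT library in 3 of 4 VH81X-CBEscr/scr libraries (limma-voom adjusted p 0.411).

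**Figure D3:**
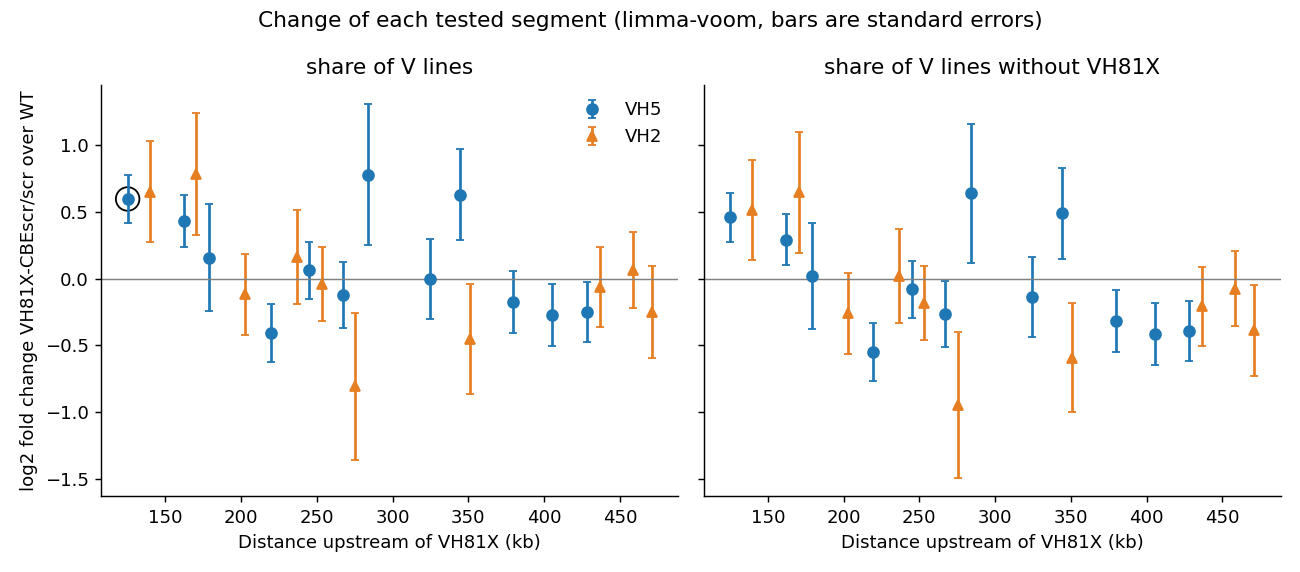
Log2 fold change (VH81X-CBEscr/scr over WT) of the 22 tested segments against distance upstream of VH81X (kb), with V joins (left) or V joins without VH81X (right) as library size, bars for standard errors, circles for VH5 and triangles for VH2. A ring marks V_114961492, the segment called in the left panel, and 0 are called in the right panel.

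In bins of 100 kb, with VH81X left out, none of the 4 differences passed the exact permutation test. At 100 to 200 kb the shares were 2.97%, 4.48%, 4.00% and 4.27% in VH81X-CBEscr/scr replicates 1 to 4, against 2.18%, 2.54% and 4.67% in WT replicates 1 to 3. WT replicate 3 was the highest of all, so the groups overlapped, and the log2 difference of 0.39 had an exact permutation p of 0.286 (adjusted p 0.381 over the 4 bins). The other bins were lower in VH81X-CBEscr/scr on average, at 3.38% ± 0.406 against 4.02% ± 0.802 for 200 to 300 kb (log2 difference -0.24), 1.51% ± 0.3005 against 1.63% ± 0.0349 for 300 to 400 kb (-0.14) and 2.36% ± 0.265 against 2.86% ± 0.272 for 400 to 500 kb (-0.28), VH81X-CBEscr/scr given before WT with SD over 4 and 3 libraries. Their adjusted exact permutation p-values were 0.381, 0.429 and 0.381. A lower share was not particular to these bins. In the same denominator the segments beyond 500 kb took 66.2% ± 2.20 in VH81X-CBEscr/scr against 73.9% ± 2.56 in WT. Those within 100 kb took 22.4% ± 2.31 in VH81X-CBEscr/scr against 14.0% ± 1.19 in WT. In each of the 4 bins the groups overlapped. Single libraries moved these differences: without WT replicate 1 the bin at 100 to 200 kb differed by 0.17 and that at 200 to 300 kb by -0.082, and without WT replicate 3 the bin at 100 to 200 kb differed by 0.72. The bin at 300 to 400 kb differed by -0.24 without VH81X-CBEscr/scr replicate 1, by -0.066 without replicate 2 and by -0.044 without replicate 4.

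Neither family of the window differed detectably in total. The 12 VH5 segments held 7748 joins, or 74.4% of those in segments, and the 11 VH2 segments 2664, or 25.6%. VH5 segments took 8.36% ± 0.628 of V joins in VH81X-CBEscr/scr (SD, n = 4) and 7.80% ± 1.12 in WT (SD, n = 3), a log2 difference of 0.11 (exact permutation p 0.486). VH2 segments took 2.79% ± 0.402 in VH81X-CBEscr/scr and 2.74% ± 0.296 in WT, a log2 difference of 0.02 (exact permutation p 0.943). Both adjusted p-values over the 2 families were 0.943. Without VH81X both signs turned, with log2 differences of -0.033 for VH5 (exact permutation p 0.8286) and -0.12 for VH2 (exact permutation p 0.429). By order of use within the window, V_114961492 ranked from 1 to 2 in the VH81X-CBEscr/scr libraries and from 1 to 4 in WT.

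A triplet of segments occurred again about 105 kb farther upstream with nearly the same spacing. V_114998634, V_115006778 and V_115015512 are 8.144 and 8.734 kb apart, and V_115103579, V_115111723 and V_115120456 are 8.144 and 8.733 kb apart. The triplets run VH5, VH2, VH5, and their matching members differed at 14, 0 and 5 of 178 bases. In each of the 3 pairs the member nearer to VH81X was joined more often, by 2.23, 2.31 and 2.49 times in pooled joins and in 7 of 7 libraries. Within a genotype the ratios spread wider, at 2.56 in VH81X-CBEscr/scr and 1.86 in WT for V_114998634 over V_115103579, and at 2.08 in VH81X-CBEscr/scr and 3.35 in WT for V_115015512 over V_115120456. For V_115006778 over V_115111723 it was 3.83 in VH81X-CBEscr/scr (88 over 23 joins) and 1.22 in WT (39 over 32 joins). These 2 are identical at the 178 bases compared, so that ratio depends in part on how tied reads were placed. This is a description, since the pairs were chosen after their positions and counts were seen.

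V_115006778 and V_115111723, the pair identical at the 178 bases compared, had log2 fold changes of opposite sign, 0.79 and -0.81. However, 44.1% and 38.2% of their joins matched another segment as well as their own, and such reads can be placed on either. Of their joins, 57.7% matched their own segment better than any other, the lowest shares in the window being 55.9% for V_115006778 and 61.8% for V_115111723, against 97.9% over all joins of the window. V_114976040, which differs from both at 1 of 178 bases, reached 85.7%. Added together, the identical pair took 0.203% ± 0.0863 of V joins in VH81X-CBEscr/scr (SD, n = 4) and 0.163% ± 0.0530 in WT (SD, n = 3), a log2 difference of 0.27 (exact permutation p 0.571). Among joins that matched their own segment best, the log2 fold change of V_115006778 was -0.057.

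The reading frame was read from the cysteine codon of V to the JH4 tryptophan codon in distinct joins, which count a library's joins of the same position, bait end and inserted bases once. The genotypes did not differ detectably in it. In-frame joins made up 58.4%, 60.03%, 59.7% and 62.3% in VH81X-CBEscr/scr replicates 1 to 4, against 60.9%, 58.5% and 59.8% in WT replicates 1 to 3, with overlapping groups. Means were 60.1% ± 1.62 in VH81X-CBEscr/scr (SD, n = 4) and 59.7% ± 1.21 in WT (SD, n = 3), with an exact permutation p of 0.8. The frame was readable in 5379 of 5626 distinct joins.

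The reading frame of window joins was set beside that of all other V joins pooled, near and far segments and VH81X included. No part of that pool was compared on its own. Frame could be read only in the 145 of 158 segments where a cysteine codon was found. Joins of the window were more often in frame than the pool. The share averaged 59.96% ± 1.36 in the window and 55.7% ± 2.75 in other V joins (SD, n = 7 libraries), higher in 7 of 7 libraries, a difference of 4.28 percentage points (exact sign-flip permutation p 0.0156, the smallest that the sign flips of 7 libraries allow, adjusted p 0.0208 over 4 paired measures). Within the window VH5 joins were in frame in 62.8% ± 2.94 and VH2 joins in 53.0% ± 3.87 (SD, n = 7 libraries). VH5 was higher in 7 of 7 libraries, by 9.77 percentage points (exact sign-flip permutation p 0.0156, adjusted p 0.0208). This difference lay largely in 3 VH2 segments. Without them pooled VH2 joins were in frame in 62.2%, beside 63.2% for pooled VH5 joins, and that comparison was not tested.

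The lowest in-frame shares belonged to 3 VH2 segments. With all libraries pooled, V_115187353 was in frame in 22.9% of 83 distinct joins (95% Wilson interval 15.2% to 33.0%), V_115039214 in 27.3% of 227 (21.9% to 33.5%) and V_114976040 in 37.0% of 138 (29.4% to 45.3%). The other 20 segments lay between 50.0% and 75%, and the other VH2 segments together were at 62.2%, beside 63.2% for all pooled VH5 joins. The 3 were picked out after their values were seen. V_115073093, whose last 92 bases are the same as those of V_115039214, was in frame in 57.7% of 130 joins (49.1% to 65.8%). V_115039214 carried an in-frame stop codon, TGA, 67 codons before the cysteine, in 97 of the 99 lines that cover it (98.0%). No other segment's majority sequence had a stop codon over the bases read up to and including the cysteine codon, 210 in V_115324071 and more in the others, so V_115187353 and V_114976040 had none in that stretch. The pooled joins share library and segment, and intervals cover counting error only.

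**Figure D4:**
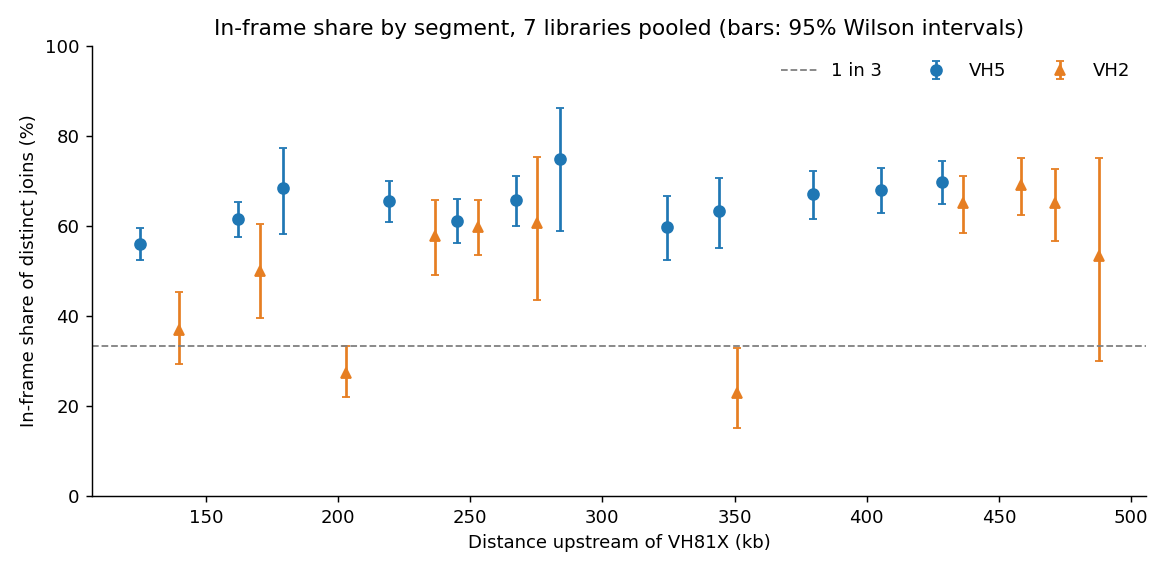
In-frame share (%) of the distinct joins of each of the 23 segments, 7 libraries pooled, against distance upstream of VH81X (kb), with 95% Wilson intervals, circles for VH5, triangles for VH2 and a dashed line at 1 in 3. V_115187353, V_115039214 and V_114976040 lie lowest, at 22.9%, 27.3% and 37.0%.

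Pooled over their segments, the families of the window also differed in how the coding end was processed. A coding end was called whole where 8 or more bases after the cysteine codon were kept. The heptamer began at that distance in each of the 9 segments whose signal sequence was read. For the other segments the same distance was assumed. Whole ends made up 44.0% ± 2.78 of distinct VH5 joins and 55.0% ± 4.05 of distinct VH2 joins (SD, n = 7 libraries). VH5 was lower in 7 of 7 libraries, a difference of -11.0 percentage points (exact sign-flip permutation p 0.0156, adjusted p 0.0208). Of the pooled VH5 joins 25.8% had lost 1 base, against 13.0% of VH2 joins, and losses of 2 and 3 bases were closer, at 12.9% and 9.28% for VH5 and 11.3% and 8.84% for VH2. Single segments of the families overlapped. Whole ends ranged from 34.8% for V_115015512 to 54.9% for V_115215891 in VH5. In VH2 they ranged from 33.3% for the rare V_115324071 and 36.6% for V_115187353 to 62.2% for V_115307490. The sign flips cover the spread between libraries and not that between segments of a family. The bases inserted between V and JH4, which hold any D, averaged 17.1 ± 0.269 in the window and 17.0 ± 0.0774 in other V joins (SD, n = 7 libraries), higher in 5 of 7 libraries (exact sign-flip permutation p 0.547). The files hold no insert over 30 bases, so longer ones are not part of these means.

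**Figure D5:**
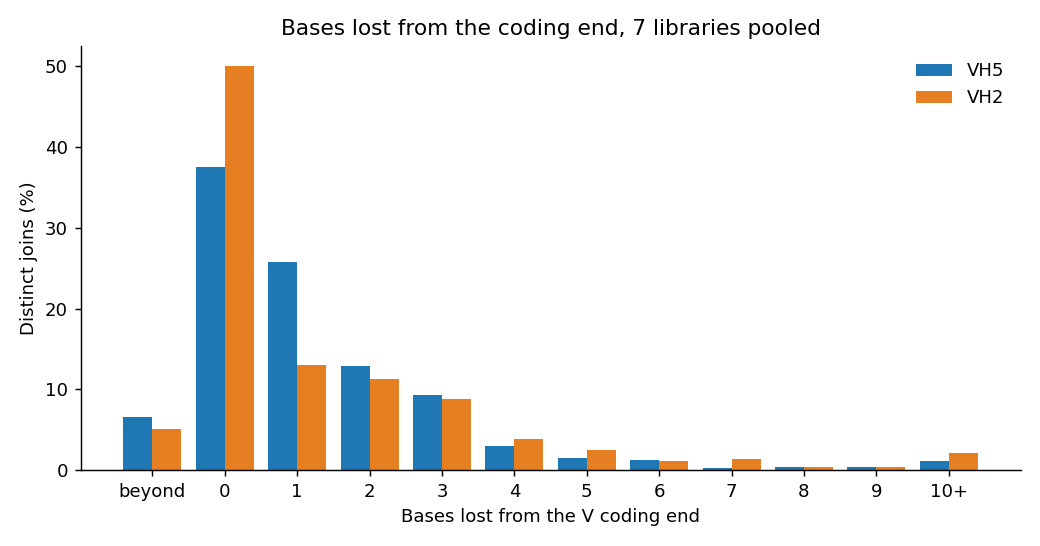
Bases lost from the V coding end in distinct joins of the window, in percent of the joins of each family (blue, VH5, and orange, VH2), 7 libraries pooled, with joins that kept more than 8 bases after the cysteine codon as "beyond". VH2 joins have the taller bar at 0 bases (50.0% against 37.6% for VH5) and VH5 joins at 1 base (25.8% against 13.0% for VH2).

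A small number of lines in the inverted orientation start at the same coding ends and run the other way, through the signal sequence. Across the window there were 6, 4, 15 and 10 such lines in VH81X-CBEscr/scr replicates 1 to 4 and 2, 1 and 12 in WT replicates 1 to 3, and 42 of the 50 lay within 10 bp of a coding end. They gave the signal sequence of 9 segments, each with a spacer of 23 bases. The VH5 ones that are unlike each other are shown with that of V_115006778, a VH2 segment, heptamer and nonamer in capitals, minus strand, in the files' coordinates.
V_114961492 (chr12:114961453-114961491): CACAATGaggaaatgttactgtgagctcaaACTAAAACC
V_115081350 (chr12:115081311-115081349): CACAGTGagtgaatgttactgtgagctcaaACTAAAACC
V_115264678 (chr12:115264640-115264678): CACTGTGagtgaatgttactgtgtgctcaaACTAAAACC
V_115006778 (chr12:115006739-115006777): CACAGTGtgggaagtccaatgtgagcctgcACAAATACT

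V_114961492, the most used segment of the window, had the heptamer CACAATG in 3 lines, of which 1 covers the least read base. V_115264678 had CACTGTG in 5 lines of 1 library, and the other 7 segments had CACAGTG. The VH5 nonamer read in 4 segments was ACTAAAACC in each, while VH2 segments had ACAAATACT, ACAAATACC or, in V_115039214, ACAAAAATT. These differences are described only, as most of the sequences rest on few lines.

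Repeated reads were common in all libraries and varied most in WT. Distinct joins made up 47.0%, 50.4%, 55.7% and 50.5% of window lines in VH81X-CBEscr/scr replicates 1 to 4, against 67.8%, 33.0% and 62.1% in WT replicates 1 to 3. WT replicate 2 was the lowest and the other WT replicates the highest, so the groups overlapped. Means were 50.9% ± 3.59 in VH81X-CBEscr/scr (SD, n = 4) and 54.3% ± 18.7 in WT (SD, n = 3), with an exact permutation p of 0.771. In other V joins they were 53.5% ± 5.52 in VH81X-CBEscr/scr and 56.1% ± 19.4 in WT (exact permutation p 0.8). Of 5632 distinct joins of the window, 3 were found in more than 1 library and 1 in both genotypes.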

How the data were processed

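Per the file headers, each deposited line is 1 sequenced junction with its position, strand, alignment and sequence; these columns are other units, and no deposited column holds counts, so joins were counted here from lines. Per the submitters' processing notes, the authors used Bowtie2 and mm9, with versions and filters not given in the sources used here. Lines marked duplicate, 71.8% to 84.8% of a library, were kept. Bases beyond the gap between mates were not used for majority sequences. Reads were not tagged by molecule as far as the files show, so intervals (95% Wilson) and limits cover counting error only. By library, a count of 0 allows up to 0.0178% to 0.0274% of V joins (3 counts).

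The V joins are deletional junctions at 114830800 to 117838107, and VH81X is 114836268 to 114836504. Segments with at least 10 joins on average in either group were tested with limma-voom (limma 3.58.1, R 4.3.3), Benjamini-Hochberg adjusted over all 129 at a threshold of 0.05. Single values were compared by two-sided exact permutation of 35 splits, which with 1 library left out cannot go below 0.1 (3 against 3) or 0.0667 (4 against 2), and paired measures by all sign flips of 7 libraries (Python 3.11.15, SciPy 1.17.1). All tested segments are named, with each library's value for the 8 most used and any called. The members and lists were chosen with earlier results of these data known. The labels do not state whether replicate numbers pair the libraries, and the main tests between genotypes left them unpaired. Names in the RefSeq gene table (GRCm38.p6) matched 0 of the 23 segments by spacing within 60 bp. VH2-2 lay within 2 bp of its spacing from VH81X. Whether the files' coordinates in the window are those of mm9 as released was not tested.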

Additional observations from a re-analysis of the deposited data

How the results depend on the processing

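The differences in the window's total share stayed near 0 and turned sign in some settings. The log2 difference of the window's share ran from -0.0023 to 0.16 with 1 library left out and was -4.35e-04 among lines not marked duplicate. Without VH81X it ran from -0.14 to 0.027. The ratio to the segments beyond 500 kb ran from -0.013 to 0.20 with 1 library left out and was -0.011 among lines not marked duplicate. The ratio to the segments within 100 kb kept its sign in 9 of 9 alternatives. With 1 library left out, the in-frame difference between genotypes ran from -0.34 to 0.98 percentage points and that in distinct joins per line from -14.1 to 3.36. The difference in mean inserted bases between the window and other V joins, over all libraries kept, ran from -0.018 to 0.12. The count of called segments, 1, was 0 under limma-trend, with the replicate block, among lines not marked duplicate and among joins matching their own segment best, and ran from 0 to 2 with 1 library left out. Without VH81X, the count of 0 was 1 with TMM scaling and ran from 0 to 1 with 1 library left out. The replicate block was run for the window's share and the segment fits, where it changed no other call.

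Uncalled segments turned sign as follows on the log2 scale. With the replicate block V_115015512 was -0.050, V_115073093 -0.034 and V_115160877 0.036. V_115160877 was 0.022 with TMM scaling and 0.0011 under limma-trend. Without VH81X, V_115081350 was -0.079 and V_115294804 -0.074. Among distinct joins V_115015512 was -0.11 and V_115081350 -0.028. Among lines not marked duplicate V_115081350 was -0.098 and V_115187353 0.0036. Among joins matching their own segment best V_115006778 was -0.057. With 1 library left out the ranges were -0.16 to 0.53 for V_115015512, -0.51 to 0.44 for V_115039214, -0.027 to 0.39 for V_115073093, -0.16 to 0.23 for V_115081350, -0.19 to 0.15 for V_115089463, -0.16 to 0.17 for V_115160877 and -0.077 to 0.36 for V_115294804. The causes were not tested. The sequencing run as a random block, chosen after seeing the data, kept the call of V_114961492 (0.57, limma-voom adjusted p 0.0093). The 3 paired differences past the threshold kept their call with any 1 library left out and over all lines, alternatives also chosen after seeing the data. Depth limits the rarest segments most, V_115111723 with 55 joins and V_115324071 with 24.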

Other observations

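Of the inverted lines that lay away from a coding end, 7 sat 130 to 136 bp from the most frequent junction of V_115081350, all in 2 VH81X-CBEscr/scr libraries. Mismatches to the files' reference made up 0.331% of the aligned bases in the window's segments, and 0.971% in V_115324071, the least used of them.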
